A study of Mus musculus with 14 samples.

Results

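Complement components and regulators were followed through 7 groups of mouse hepatoblast cultures on Affymetrix mouse expression arrays. The 8 genes were C9, Hc, Cfb, Cfd, Masp1, Cfi, Serping1 and Cd55, matched to probe sets by gene symbol, and where a gene had several probe sets, the one with the highest mean over the 14 arrays was used. Of the 8 members, 7 were measured, out of 12393 genes in all. Cfd was not analysed here, because no probe set could be named for it. The probe sets were chosen by their mean level on these arrays, and the 8 genes were named with differences between the groups on the same arrays known, so the members' values and differences are given as a description, without p-values of their own.

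Hepatoblasts are the fetal liver progenitors of hepatocytes and bile duct cells. These came from wild-type mouse embryos at day 14 and had been immortalised by plating at clonal density. The labels do not say whether 1 clone or several were carried forward. On collagen-coated plates there were 5 groups of 2 cultures: an empty vector control, IDH1 in its wild-type and R132C forms, and IDH2 in its wild-type and R172K forms. Vector and R132C cells were also grown on uncoated plates for up to 5 days, again with 2 cultures each. The series text describes a doxycycline-inducible system, and doxycycline at 25 ng/mL is given for the IDH1 experiments. All groups shared a medium with serum, epidermal growth factor, insulin-like growth factor II and insulin. IDH1 and IDH2 are isocitrate dehydrogenases of the cytosol and of mitochondria.

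Complement is a cascade of plasma proteases made largely by hepatocytes. It starts by the classical route (C1q, C1r and C1s), by the lectin route (lectins with the MASP proteases) or by the alternative route (factor B, factor D and properdin). The routes meet at cleavage of C3 and then of C5, after which C6 to C9 assemble into a membrane pore. Soluble and membrane-bound regulators stop the convertases from acting on the body's own cells.

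The arrays were alike in overall signal, with medians of 134.9 to 148.3 intensity units, and replicates correlated across genes at r = 0.994 to 0.998, lowest for R172K. With 2 arrays a group, precision is limited by their number. Levels are log2 of the deposited intensity, and a group mean at or under log2 4.81, the highest lower quartile among the 14 arrays, is called near background. The labelled cell type was checked against its markers. Hnf4a (group means of log2 10.88 to 11.71) and Afp (9.24 to 11.52) were well above background in every group, while Alb was near background in 6 of 7 groups and Prox1 in all 7. The 4 measured biliary markers were above background in every group. Of the 6 endothelial markers 1 or 2 were above background in any group, of the 5 adipocyte markers 1 or 2, of the 7 mesenchymal markers 2 to 4, and of the 8 macrophage and leukocyte markers 3 to 5. These were bulk cultures, so a gene's lower signal cannot be told apart as fewer cells of a type or less RNA per cell.

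RefSeq promoter sequences on build GRCm38.p6 were at hand for C9, Hc, Cd55 and Cfd. The first 3 are shown because these genes behaved differently on the arrays: C9 signal appeared on uncoated plates, Cd55 was above background everywhere, and Hc nowhere. Each sequence runs 5′ to 3′ on the gene's strand over the 250 bases before the annotated start, at chr15:6445096-6445345 (plus strand) for C9, chr1:130462745-130462994 (minus strand) for Cd55 and chr2:35061413-35061662 (minus strand) for Hc. Capitals mark a match to a searched motif.
C9: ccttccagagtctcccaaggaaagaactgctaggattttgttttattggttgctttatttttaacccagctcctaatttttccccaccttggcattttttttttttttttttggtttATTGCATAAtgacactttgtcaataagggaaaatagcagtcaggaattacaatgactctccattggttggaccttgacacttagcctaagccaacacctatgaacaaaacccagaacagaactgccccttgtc
Cd55: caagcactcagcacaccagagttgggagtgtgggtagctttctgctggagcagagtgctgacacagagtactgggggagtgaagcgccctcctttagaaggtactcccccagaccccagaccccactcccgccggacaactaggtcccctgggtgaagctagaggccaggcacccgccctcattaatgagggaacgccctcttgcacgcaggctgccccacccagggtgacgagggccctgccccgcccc
Hc: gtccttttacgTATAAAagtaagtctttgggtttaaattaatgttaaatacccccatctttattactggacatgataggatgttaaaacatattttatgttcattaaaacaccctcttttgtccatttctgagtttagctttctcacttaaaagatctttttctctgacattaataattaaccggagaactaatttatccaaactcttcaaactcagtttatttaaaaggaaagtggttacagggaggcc
Both strands were searched for 8 motifs: HNF4 (CAAAGTCCA), a looser HNF4 form that contains it (CAAAGNNCA), C/EBP (TTNNGNAAT), HNF1 (its palindromic consensus with a free base in the middle), STAT (TTCNNNGAA), AP-1 (TGANTCA), NF-kB (by its usual consensus) and the TATA box, searched as TATAAA. The C9 window held 1 match, ATTGCATAA, which is the C/EBP form on the opposite strand, 133 to 125 bases before the start. The Hc window held 1 TATA match at 239 to 234 bases before the start, and the Cd55 window held none of the 8. Among 32851 promoter windows of the same length, 10.2% held the C/EBP form, 12.4% TATA, 7.25% NF-kB, 7.02% STAT, 6.75% AP-1, 5.49% the looser and 0.384% the stricter HNF4 form, and 0.00913% HNF1. The C9 window was 38.8% G and C, the Hc window 31.2% and the Cd55 window 64%. A match is a description of letters and not evidence of binding.

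The 7 measured members fell into 3 kinds by level. Hc and Serping1 stayed near background in all 7 groups. C9 and Cfi were near background in all 5 collagen groups and above it in both uncoated groups. Cfb, Masp1 and Cd55 were above background in every group. By comparison, 20.0% of all genes were near background in all 7 groups.

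**Figure D1:**
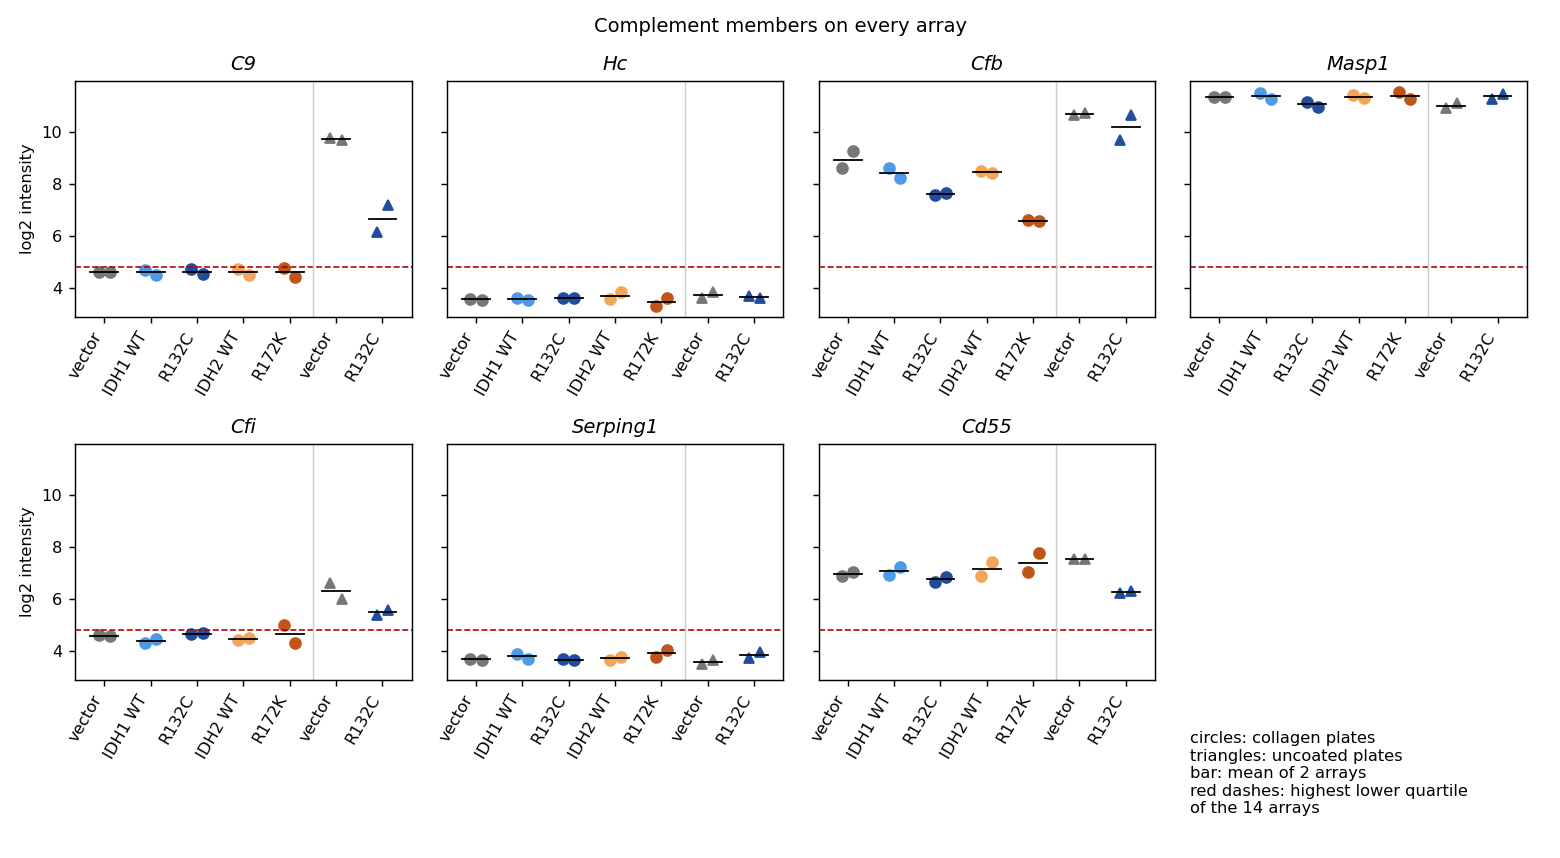
Log2 intensity of the 7 measured complement members on each of the 14 arrays, by group (circles, collagen; triangles, uncoated plates; bars, mean of 2 arrays; dashed line, the highest lower quartile, log2 4.81). C9 and Cfi lie near the line on collagen and above it on uncoated plates, Cfb spans log2 6.58 to 10.75, and Hc and Serping1 stay under the line throughout.

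C9, the protein that polymerises to form the wall of the terminal pore, was at log2 4.61 and 4.62 on the 2 arrays of vector cells on collagen and at 9.77 and 9.71 on uncoated plates. In R132C cells it was at log2 4.75 and 4.53 on collagen and at 6.15 and 7.19 on uncoated plates. The other collagen arrays read 4.70 and 4.52 with wild-type IDH1, 4.73 and 4.52 with wild-type IDH2, and 4.77 and 4.44 with R172K. All 10 collagen arrays thus lay at one low level, both vector arrays on uncoated plates were highest, and both R132C arrays on uncoated plates stood between, without overlap. The plate difference was log2 5.12 (SE 0.25) in vector cells and 2.03 (SE 0.25) in R132C cells, and the second was smaller by -3.10 (SE 0.35) on the log2 scale. On uncoated plates the level was 8.39-fold lower in R132C than in vector cells. Since C9 started near background, the folds are not exact: with 32 units added before log2 the plate differences were 3.97 and 1.25, and R132C was below vector cells on uncoated plates by a log2 difference of -2.71. Among the collagen groups no neighbours in the order of C9 levels were apart by more than their spread.

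Hc, which encodes complement component C5, ran from log2 3.31 to 3.85 over the 14 arrays, with a median of 3.61. Every neighbouring pair of groups in its order overlapped. The vector arrays on uncoated plates (3.61 and 3.85) lay just above those on collagen (3.60 and 3.54), a difference of log2 0.16 (SE 0.13) between levels under the background line.

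Among the other terminal components, 4 of 5 listed genes were measured. C8g, the gamma chain of C8, rose in vector cells by log2 0.66 (SE 0.18, adjusted p = 0.0153 by limma), from arrays of 5.06 and 5.28 to 5.96 and 5.70. In R132C cells it was already at 5.68 and 5.73 on collagen and stood at 6.37 and 5.87 on uncoated plates. C6, C8a and C8b did not pass in any of the 8 comparisons.

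Cfb, factor B, supplies the protease of the alternative pathway convertase. On collagen its 2 arrays stood at log2 8.61 and 9.28 in vector cells, 8.64 and 8.25 with wild-type IDH1, and 8.51 and 8.42 with wild-type IDH2. They stood at 7.59 and 7.67 with R132C and at 6.62 and 6.58 with R172K. Both arrays of each mutant were thus below all 6 non-mutant collagen arrays, and R172K below R132C. On uncoated plates vector cells read 10.65 and 10.75 and R132C cells 9.71 and 10.66, so these groups overlapped and both lay above every collagen array.

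R172K cells had a Cfb level 3.65-fold under that of wild-type IDH2 cells (log2 difference -1.87, SE 0.26). R132C cells differed from wild-type IDH1 cells by -0.82 (SE 0.26), which did not pass the threshold. The plate difference was log2 1.76 (SE 0.26) in vector cells, or 3.38-fold, and 2.55 (SE 0.26) in R132C cells, or 5.87-fold. The larger plate difference of R132C cells (0.79 more, SE 0.37) went with their lower level on collagen, and it did not pass the threshold. Leaving out R132C uncoated replicate 2 moved the difference between R132C and vector cells on uncoated plates from -0.52 to -0.99, which then passed, so that array decides this call. Without wild-type IDH2 replicate 2, the R172K difference of Cfb was -1.91 and no longer passed.

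C2, the classical and lectin counterpart of factor B, also rose on uncoated plates. It went from log2 5.43 and 5.92 to 7.08 and 7.01 in vector cells (log2 1.36, SE 0.22, adjusted p = 0.000519 by limma) and from 5.42 and 5.33 to 5.84 and 6.34 in R132C cells (log2 0.71, SE 0.22, adjusted p = 0.0317 by limma). On uncoated plates C2 was lower in R132C than in vector cells by -0.95 (SE 0.22, adjusted p = 0.0454 by limma). That call was lost without either vector uncoated array or R132C uncoated replicate 1. On collagen C2 did not pass for either mutant, with a difference of 0.42 for R172K.

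Masp1 encodes serine proteases of the lectin route, MASP-1 and MASP-3, by alternative splicing. It was above background in every group and spanned only log2 0.39 between group means. Vector cells read 11.35 and 11.37 on collagen and 10.92 and 11.12 on uncoated plates. R132C cells read 11.17 and 10.96 on collagen and 11.29 and 11.46 on uncoated plates. In both kinds of cell the plates did not overlap, but in opposite directions: -0.34 (SE 0.12) in vector and 0.31 (SE 0.12) in R132C cells, neither past the threshold over all genes for the probe set used. R132C arrays on collagen also lay under those with wild-type IDH1 (11.51 and 11.28), by -0.33 (SE 0.12). The order of group means ran from R172K (11.41) through wild-type IDH1, R132C on uncoated plates and wild-type IDH2 to vector cells (11.36), all overlapping, then R132C on collagen (11.07) and vector on uncoated plates (11.02).

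Masp1 had 5 probe sets, which did not all tell the same. Probe sets 1425985_s_at and 1438603_x_at gave plate differences of -0.44 and -0.28 in vector cells and 0.37 each in R132C cells, with the signs of the one used. Both differences passed for 1425985_s_at, and the one in R132C cells passed for 1438603_x_at. Probe set 1438603_x_at is listed under the same source sequence as the one used, so it is not an independent check. Probe set 1455346_at gave -1.07 (SE 0.20) in vector cells, which passed, and -0.15 (SE 0.20) in R132C cells, which did not, so the sign in R132C cells was not shared. Probe set 1419677_at was near background in all groups, and its plate differences were -0.061 and -0.049. Which transcript each probe set reads is not given in the sources used here.

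**Figure D2:**
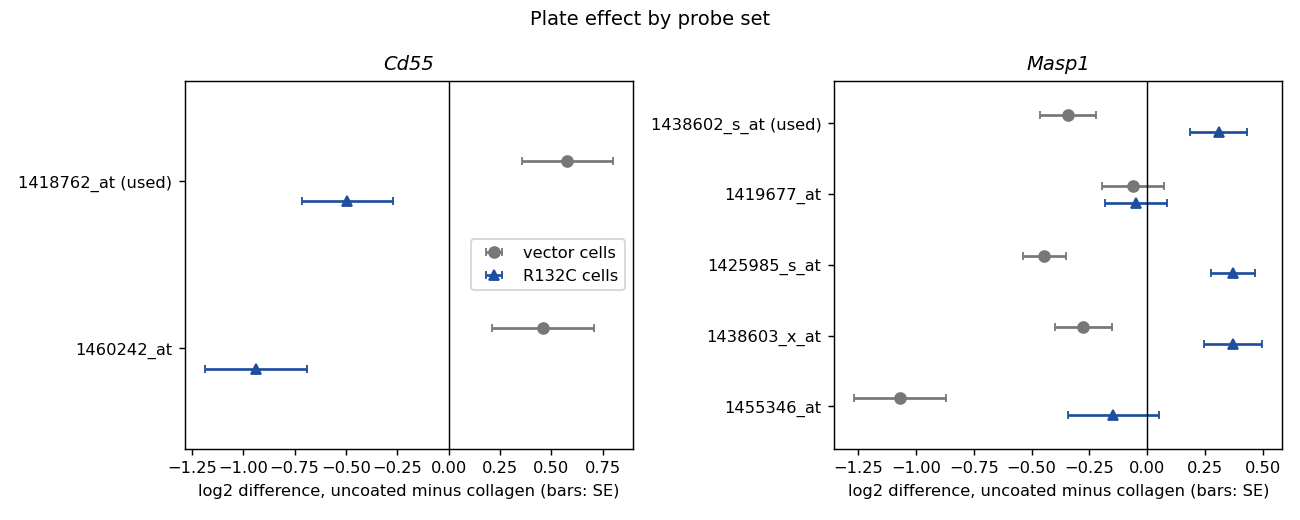
Log2 difference between uncoated and collagen plates for each probe set of Cd55 and Masp1 in vector cells (circles) and R132C cells (triangles), with bars for the SE. Both Cd55 probe sets are positive in vector and negative in R132C cells, and 3 of 5 Masp1 probe sets are negative in vector and positive in R132C cells.

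Of 9 measured genes that start the classical and lectin routes, C1ra rose and none fell on uncoated plates in vector cells, where 15.1% of all genes rose and 14.2% fell. In R132C cells C1ra and C1s1 rose and Fcna fell, where 13.6% of all genes rose and 12.3% fell. Counts this small do not set the group apart from those shares. C1ra, the C1r protease, was near background in all 5 collagen groups, so its differences are not exact. It went from log2 4.20 and 4.58 to 5.34 and 5.75 in vector cells (log2 1.15, SE 0.21, adjusted p = 0.00122 by limma) and from 4.29 and 4.41 to 5.57 and 6.34 in R132C cells (log2 1.60, SE 0.21, adjusted p = 0.000210 by limma). C1s1, the C1s protease, started near background at 3.83 and 3.84 in R132C cells and reached 4.70 and 6.63 (log2 1.83, SE 0.47, adjusted p = 0.0117 by limma), so its uncoated replicates were far apart. Vector cells on uncoated plates read 4.65 and 5.86 for C1s1. The C1q chains C1qa, C1qb and C1qc, which macrophages make, were near background in all 7 groups. Ficolin A (Fcna), a lectin that binds the MASP proteases, fell by 0.36 (SE 0.12) on the log2 scale in R132C cells on uncoated plates. It was higher by 0.67 (SE 0.12, adjusted p = 0.0162 by limma) in R172K cells, at 6.96 and 7.13, than in wild-type IDH2 cells, at 6.40 and 6.35.

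Cfi, factor I, is the protease that inactivates C3b and C4b. It was near background on collagen in all 5 groups (means of log2 4.37 to 4.66). In vector cells it read 4.59 and 4.57 on collagen and 6.62 and 5.98 on uncoated plates. In R132C cells it read 4.64 and 4.67 on collagen and 5.38 and 5.59 on uncoated plates. Both uncoated groups lay above both of their collagen groups, and vector above R132C without overlap. That difference on uncoated plates (-0.82, SE 0.22) did not pass the threshold over all genes, nor did the difference between the plate effects (-0.89, SE 0.31). The plate difference was log2 1.72 (SE 0.22) in vector and 0.83 (SE 0.22) in R132C cells. With 32 units added before log2, these became 0.99 and 0.42, so their size depends on how levels near background are scaled. In R132C cells the call was lost without either collagen array or without uncoated replicate 2.

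Serping1, the C1 inhibitor, ran from log2 3.51 to 4.04 over the 14 arrays with a median of 3.70, all under the background line. Every neighbouring pair of groups in its order overlapped. Its plate differences were -0.090 and 0.17 (SE 0.12 each) in vector and R132C cells.

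Of 6 other soluble regulators measured, 3 rose and none fell on uncoated plates in vector cells, where 15.1% of all genes rose and 14.2% fell. In R132C cells 3 rose and 1 fell, where 13.6% of all genes rose and 12.3% fell. Vtn and Cpn2 were near background in all 7 groups and passed in neither plate comparison. C4bp, the alpha chain of the C4b-binding protein that serves as cofactor of factor I, rose from log2 7.32 and 7.62 to 9.84 and 9.94 in vector cells (log2 2.43, SE 0.21, adjusted p = 5.34e-06 by limma). In R132C cells it rose from 7.60 and 7.79 to 9.17 and 9.75 (log2 1.77, SE 0.21, adjusted p = 9.88e-05 by limma). Cpn1, the catalytic chain of carboxypeptidase N that inactivates anaphylatoxins, rose 3.08-fold in vector cells (log2 1.62, SE 0.23) and 2.23-fold in R132C cells (1.15, SE 0.23). Clusterin (Clu), a chaperone that also binds terminal complexes, rose by 0.43 (SE 0.11) and 0.61 (SE 0.11), and Cfhr2, a factor H-related protein, fell by 0.43 (SE 0.14) in R132C cells between levels near background. Clu was at log2 13.29 and 13.18 with R172K against 14.02 and 13.82 with wild-type IDH2 on collagen, a difference of -0.69 (SE 0.11, adjusted p = 0.0101 by limma).

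Cd55, the decay-accelerating factor, sits in the cell membrane and takes convertases apart. Vector cells read log2 6.89 and 7.02 on collagen and 7.53 on both uncoated arrays. R132C cells read 6.66 and 6.83 on collagen and 6.21 and 6.30 on uncoated plates. The plates did not overlap in either kind of cell and went opposite ways, with differences of 0.58 (SE 0.22) in vector and -0.49 (SE 0.22) in R132C cells. For this probe set neither passed the threshold over all genes, nor did the difference between them (-1.07, SE 0.31). On uncoated plates R132C cells were lower than vector cells by -1.28 (SE 0.22), a 2.43-fold difference, which passed but did not without vector uncoated replicate 1 or R132C uncoated replicate 1. The remaining collagen arrays ranged from 6.90 and 7.21 with wild-type IDH1 and 6.88 and 7.40 with wild-type IDH2 to 7.02 and 7.76 with R172K, and these groups overlapped with vector cells.

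The second Cd55 probe set, 1460242_at, gave plate differences of 0.46 (SE 0.25) in vector and -0.94 (SE 0.25) in R132C cells, and -1.64 (SE 0.25) for R132C against vector cells on uncoated plates. The difference in R132C cells passed for this probe set, as it did with the mean of both (-0.72), and the one in vector cells did not. Its direction was that of the probe set used in each of these comparisons. No other membrane regulator of the 6 measured passed in any comparison. Cr1l, the rodent membrane cofactor Crry, read log2 9.95 and 10.07 on collagen and 10.47 and 10.17 on uncoated plates in vector cells, and Cd55b, Cd46, Cd59a, Susd4 and Csmd1 did not pass either.

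Of 9 measured receptors for complement fragments, Itgb2 and C1qbp fell in vector cells on uncoated plates, and C3ar1 and C1qbp fell in R132C cells. None passed as higher, and 2 of 9 is near the 14.2% and 12.3% of all genes that fell. C1qbp, a mostly mitochondrial protein named for binding C1q, changed by -0.32 (SE 0.068) and -0.34 (SE 0.068). C3ar1, the C3a receptor, went from log2 5.61 and 5.48 to 4.86 on both arrays in R132C cells (-0.69, SE 0.16, adjusted p = 0.00801 by limma). Itgb2, the beta chain of the leukocyte complement receptors, was near background on both plates in vector cells (-0.67, SE 0.24, adjusted p = 0.0491 by limma).

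**Figure D3:**
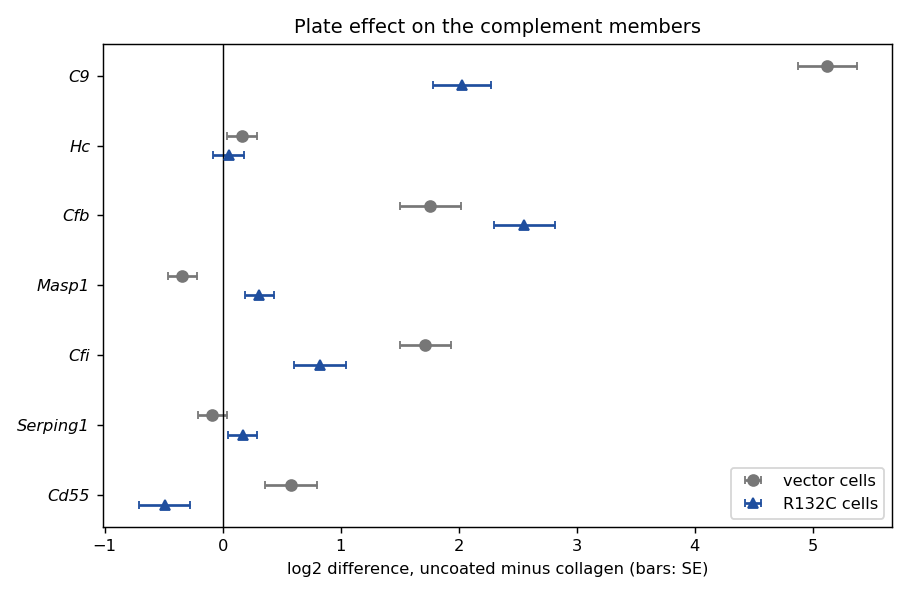
Log2 difference between uncoated and collagen plates for the 7 measured members in vector cells (circles) and R132C cells (triangles), with bars for the SE. C9, Cfb and Cfi are positive in both, and Masp1, Serping1 and Cd55 have opposite signs in the 2 kinds of cell, with Serping1 near background.

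Counted over members, 3 of 7 (C9, Cfb and Cfi) passed an adjusted p of 0.05 as higher on uncoated plates in vector cells, where 29.3% of all genes passed and 15.1% were higher. The same 3 passed in R132C cells, where 25.9% of all genes passed and 13.6% were higher. Arrays of the plates did not overlap for 6 of 7 members in vector cells, 5 higher and Masp1 lower, against 65% of all genes, 30.6% higher and 34.4% lower. In R132C cells they did not overlap for 6 of 7, 5 higher and Cd55 lower, against 65.7% of all genes, 30.5% higher and 35.2% lower. C9 was the 1 member past the threshold for the difference between the plate effects, where 0.25% of all genes passed. C9 and Cd55 passed for R132C against vector cells on uncoated plates, where 2.39% of all genes passed and 1.49% were lower. Cfb passed for R172K against wild-type IDH2, where 1.73% of all genes passed and 1.14% were lower. Nothing is read from these shares, since the members were named with such results known. The median plate difference of the 7 members was 0.58 in vector and 0.31 in R132C cells, beside medians of -0.020 and -0.028 over all genes.

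The other complement genes were listed by role as a whole pathway, 51 in all, of which 36 were measured. Of these 36, 15 were near background in all 7 groups and 14 above it in all 7. On uncoated plates 6 rose and 2 fell in vector cells, and 6 rose and 4 fell in R132C cells, by limma with Benjamini-Hochberg adjustment over all genes. As a share that is near the 29.3% and 25.9% of all genes called, so the list of 36 as a whole did not stand out. Its median plate differences were 0.025 and 0.034. The list held more genes near background in all 7 groups, 15 of 36 against 20.0% of all genes. With dim genes left out, 9 of the 36 were tested, and 6 of these 9 were called in each plate comparison. In that fit, which kept those of the 12393 genes above the 30th percentile of level, 3610 genes were called in vector cells and 3303 in R132C cells. Whether the brighter complement genes stand out was not tested. Leaving out R132C collagen replicate 1 or 2, or R132C uncoated replicate 2, brought the 10 calls in R132C cells to 5, 6 and 6. None of the 36 passed for the difference between plate effects, while 1 (C4bp, -0.66, SE 0.29) had an unadjusted p under 0.05, as did 5.60% of all genes. For R132C against vector cells on uncoated plates C2 alone passed and 3 had an unadjusted p under 0.05, as did 13.2% of all genes.

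**Figure D4:**
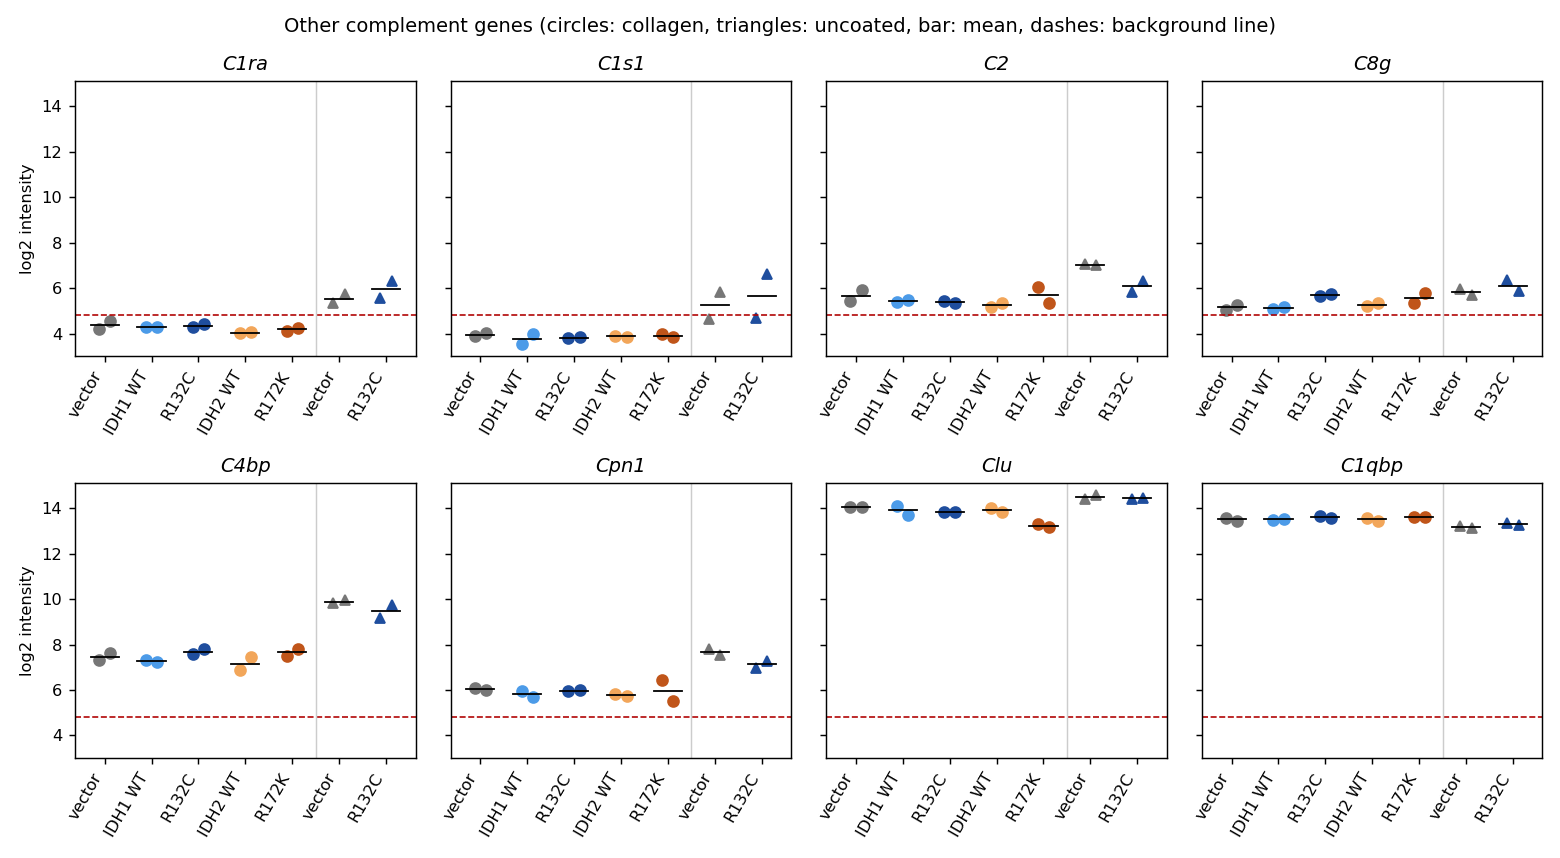
Log2 intensity of 8 other complement genes on each array by group, with circles for collagen, triangles for uncoated plates, bars for the mean of 2 arrays and a dashed line for background. C1ra, C2, C4bp and Cpn1 are higher on uncoated plates in both kinds of cell, and Clu is lowest with R172K.

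On collagen, differences between the IDH forms were few. For R172K against wild-type IDH2, Clu and Fcna passed among the 36, and 8 had an unadjusted p under 0.05, as did 16.9% of all genes. The 2 calls became 0 without either wild-type IDH2 array and 9 without R172K replicate 2. For R132C against wild-type IDH1, where 0.0484% of all genes passed, no member and none of the 36 did, and 4 of the 36 had an unadjusted p under 0.05, as did 7.52% of all genes. The largest of these 36 differences was that of C8g, at 0.58. With wild-type IDH1 or wild-type IDH2 against vector, limma called none of 12393 genes (0%), with 128 and 116 at an unadjusted p under 0.05. Those are 1.03% and 0.936% of all genes. Of the 36, 2 and 1 were among them, and the members' differences ran from -0.50 (Cfb) to 0.12 with wild-type IDH1 and from -0.48 (Cfb) to 0.18 with wild-type IDH2. These comparisons share their vector arrays.

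The R132C arrays on uncoated plates differed between replicates in several complement genes. C9, Cfb, C1ra, C1s1 and C4bp were at least log2 0.5 higher on replicate 2 than on replicate 1, which is 5 of 43 complement genes against 1.27% of all genes. C8g was lower by that much, against 1.47% of all genes. In R172K cells 5 of the 43 were higher and 7 lower on replicate 2, against 5.62% and 4.27% of all genes. In the other 5 groups at most 3 of the 43 differed by as much. Without either R132C uncoated array C9 was still below vector cells on uncoated plates, by -3.59 without replicate 2 and -2.55 without replicate 1.

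Markers of other cell types were set beside the plate differences. For comparison, 15.1% of all genes rose and 14.2% fell on uncoated plates in vector cells, and 13.6% rose and 12.3% fell in R132C cells. The bile duct markers moved with the plate: in vector cells Sox9 rose from group means of log2 7.36 to 9.38 and Epcam from 9.37 to 11.20, while Krt7 fell from 13.20 to 12.36 and Krt19 from 13.88 to 13.61. In R132C cells Sox9 rose from 7.43 to 9.41 and Epcam from 8.63 to 9.71, and Krt7 fell from 13.22 to 12.67. The plasma carrier Ttr, a hepatocyte product, rose as well, from 6.08 to 9.14 with the vector and from 6.26 to 7.41 with R132C. Afp fell in both, from 10.64 to 9.24 and from 11.52 to 10.69. Of 5 adipocyte, 7 mesenchymal and 6 endothelial markers, Lep, near background, and Col1a1 were lower on uncoated plates in vector cells and none passed in R132C cells, all by the same limma fit. Of 8 macrophage and leukocyte markers 1, the leukocyte marker Ptprc, rose on uncoated plates, from group means of log2 4.47 to 6.20 with the vector and 4.16 to 5.35 with R132C. The summed intensity of the list was 1062 to 1212 on collagen and 1132 to 1309 on uncoated plates in vector cells, and 843.2 to 961.3 and 860.9 to 907.1 in R132C cells. Of this list Marco and Cd5l, which mark macrophages, were near background in all 7 groups, while Cd14, Cd68 and Clec4f were above it in all 7. In R172K cells, where Cfb was lowest, Cd14 (9.02 against 9.77), Hnf4a (10.88 against 11.53), Krt18 (13.88 against 14.14) and Epcam (8.32 against 9.26) were lower than with wild-type IDH2. The macrophage marker Cd68 went the other way from Cd14, at 6.71 against 5.75, and did not pass the threshold. The part of these markers in the complement results was not tested.

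Likeness of pattern was measured for members whose group means spanned at least log2 1, by Pearson's r over the 14 arrays among 1472 genes. These genes had as wide a span and a highest group mean above the median of the arrays' lower quartiles. Predicted genes were left out. C9 was most like Naip5, a sensor of bacterial flagellin (r = 0.991), Spink4, a protease inhibitor (r = 0.989), and Pde9a, a cyclic GMP phosphodiesterase (r = 0.989). Cfb was most like the neighbouring membrane protein genes Tmem176b (r = 0.995) and Tmem176a (r = 0.992) and Serpinb9, an inhibitor of granzyme B (r = 0.985). Cfi was most like the deacetylase Hdac5 (r = 0.977), the kinase Tec (r = 0.977) and the lysosomal lipase Lipa (r = 0.976). For Cd55 the highest values were lower, with the collagenase Mmp13 (r = 0.740), the adaptor Sh3kbp1 (r = 0.662) and the stress protein Nupr1 (r = 0.653). The arrays share plates and replicate groups, and the values describe these 14 arrays only.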

How the data were processed

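RNA of 14 hepatoblast cultures in 7 groups of 2 was measured on Affymetrix mouse arrays, 1 per culture. The deposited values are probe set intensity made with RMA, as per the submitters' processing notes; versions are not given there. All were positive and reached 26770, so they were on a linear scale and log2 was taken. Of 22690 probe sets, 64 were controls, 691 carried several symbols and 1555 were not in the platform table. Each of 12393 genes was represented by its brightest probe set, by mean over the arrays, among the 20380 with a single symbol.

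One linear model with a mean per group was fitted by limma (version 3.58.1, R 4.3.3) over the 14 arrays, with a trended prior variance and 7 residual and 5.67 prior degrees of freedom. P-values were adjusted by Benjamini-Hochberg over all genes within each of 8 comparisons, and genes with an adjusted p under 0.05 were called. Differences are log2 with their SE. As a check of the code, the fit was also run on simulated arrays with independent noise. Noise shared between arrays was not simulated, so that run is no test of the calls made here.

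The members and gene lists were chosen with earlier results of these data known. All members are named. Of the other complement genes, up to 4 per role past the threshold and up to 2 with the highest level may be named, and the 3 genes most like a member by Pearson's r. Genes singled out beyond this were chosen after their values were seen. The series text calls the replicates cultures, and p-values measure only the spread between them. The background correction could not be redone. Alternatives were averaging all probe sets of a gene, leaving out genes under the 30th percentile of level, cyclic loess, median centring, 32 units added before log2, no intensity trend, only the arrays compared, a replicate block, and omission of each array in turn.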

Additional observations from a re-analysis of the deposited data

Results flagged for a closer look

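C9 differed between the kinds of cell in its response to the uncoated plate: the log2 change was smaller in R132C than in vector cells by -3.10 (SE 0.35), and this difference passed the threshold over all genes. C9 was near background on collagen in both kinds of cell, so the size of this difference is not exact. With 32 units added before log2 it was -2.72. The gene was among those named with this difference known. For Masp1 and Cd55 the arrays of the plates did not overlap in either kind of cell, with opposite directions in vector and R132C cells. Arrays of the plates did not overlap for 65% of all genes in vector and 65.7% in R132C cells. The share of all genes with opposite directions was not computed. The differences between the plate effects were 0.65 (SE 0.17) for Masp1 and -1.07 (SE 0.31) for Cd55, and neither passed over all genes. Another Masp1 probe set, 1425985_s_at, did pass for this difference, at 0.82 (SE 0.13). Masp1 probe sets 1455346_at (-1.07 in vector and -0.15 in R132C cells) and 1419677_at (-0.061 and -0.049) did not show opposite directions. Mbl1, a mannose-binding lectin near background in these 4 groups, also went opposite ways by small amounts, with a difference of 0.32 (SE 0.26, adjusted p = 1.00 by limma).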

How the results depend on the processing

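The 10 member differences past the threshold kept their sign in all 122 alternatives, and 6 of these no longer passed, all with 1 array left out. Among 46 differences not past it, 15 of 554 alternatives passed, all but 1 (Cfb) for Masp1, Cd55 or Cfi; with only the arrays compared, Masp1 and Cd55 passed for both plate effects, and Cd55 for their difference. For the plate effect in R132C cells the 10 called genes of the other 36 became 6 when dim genes were left out, which leaves 9 of them tested, and 5 to 8 with 1 array left out. The single call for R132C against vector cells on uncoated plates, C2, became 0 with the mean of probe sets, cyclic loess, median centring, no intensity trend or only the arrays compared, and 0 to 1 with 1 array left out. The 2 calls for R172K became 0 with only the arrays compared, and 0 to 9 with 1 array left out. Over all genes, calls in the plate comparisons fell from 3628 to as few as 2293 (without vector collagen replicate 1) and from 3215 to 1660 (without R132C uncoated replicate 2). The 31 for the difference between plate effects became 11 when dim genes were left out and 79 without vector uncoated replicate 2. The 296 for R132C on uncoated plates became 71 without R132C replicate 1 and 140 with only the arrays compared. The 215 for R172K became 14 without wild-type IDH2 replicate 2, 2332 without R172K replicate 2 and 41 with only the arrays compared. The 6 for R132C against wild-type IDH1 became 0 in 8 alternatives, among them each array left out. Apart from fewer genes or arrays, the causes were not tested. A group left with a single array borrowed its spread from the rest.

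The replicate numbers are shared by the groups, but the labels do not say that they mark a common batch. Deviations of same-numbered arrays correlated at 0.11 to 0.49 in all 10 pairs of collagen groups and at 0.26 between the uncoated groups. Between a collagen and an uncoated group they correlated at -0.041 to 0.22, over 0.1 in 2 of 10 pairs. Within a plate the data thus hint that the numbers mark something shared, but with 2 numbers a group and no word in the labels they were not taken to pair the arrays. The replicate block gave each gene a single shift between replicate numbers, the same in every group, whereas the deviations correlated mainly within a plate. It is thus a limited check. With the block the other complement genes called numbered 10 and 10 for the plate effects, 0 for their difference, 1 for R132C on uncoated plates and 2 for R172K. In the other 3 comparisons they numbered 0. Over all genes the block raised the calls for the difference between plate effects to 54, for R132C on uncoated plates to 505, for R172K to 480 and for R132C against wild-type IDH1 to 49. Among members it added Masp1 and Cd55 for the vector plate effect, Cd55 for the R132C plate effect and Cfi for R132C on uncoated plates. Differences among levels near log2 4.81 are limited by signal over background, which bears on C9 and Cfi on collagen and on Hc and Serping1 throughout.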
